A study of Mus musculus with 12 samples.

Results

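Genes of the choroid plexus epithelium and of the motile cilia of the ependyma were followed across 12 arrays of GL261 tumours. The rule named 36 genes by their known place of expression, 9 of the choroid plexus and 27 of motile cilia. No measured value enters the rule, but the set was proposed with earlier results of these data known. Of these, 34 were measured among the 22180 genes tested, namely 8 of the choroid plexus and 26 of motile cilia. Kcnj13 was left out because its probe set carries several gene symbols, and Dnah12 was not used here because no listed probe set names it.

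GL261 is a mouse glioblastoma cell line that grows in mice of the C57BL/6 strain. It was implanted in the brains of 8-week-old male C57BL/6 mice, and total RNA was taken from the tumour mass on day 16, 3 arrays for each of 4 groups. The Control group carried the same tumour, and what it was given in place of a drug is not stated. The TMZ group received temozolomide, an alkylating drug, at 30 mg/kg into the peritoneum. The Anti-PD-1 group received an antibody against PD-1, an inhibitory receptor of T cells, at 10 mg/kg into a vein with 2 injections per week. The Combination group received both agents. All 4 groups share the 1 tumour line, and the dosing days are not stated. The labels do not say that each array came from a separate mouse, so the p-values measure the spread between these arrays, which may be technical. Nor do they say whether the tumour masses held ventricle wall or choroid plexus.

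The choroid plexus is a folded epithelium in the brain ventricles that secretes cerebrospinal fluid and carries hormones, vitamins and ions between blood and that fluid. Ependymal cells line the ventricles and move the fluid with tufts of motile cilia. A motile cilium beats through dynein arms on the microtubule doublets of its core, the axoneme, under the control of radial spokes, a central apparatus and the nexin-dynein regulatory complex. Foxj1 and the RFX transcription factors are known to switch on the genes that build this machine. In a sample of whole tumour, fewer cells of a type and less RNA per cell cannot be told apart.

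The RFX factors bind the X-box, a motif with the core GTTGCC. RefSeq promoters on GRCm38.p6, from 250 bases before to 50 after the start, were found for 23 of the 27 motile cilia genes (27 promoters) and 5 of the 9 choroid plexus genes (8 promoters), the unmeasured Dnah12 and Kcnj13 among them. The core, searched on both strands, lay in 11 of the 27 motile cilia promoters (40.7%), against 4111 of all 32851 promoters (12.5%). Among 58 promoters of other motile cilia genes it lay in 23 (39.7%), and among 35 of other choroid plexus genes in 4 (11.4%). Of the 8 choroid plexus promoters 3 held it (37.5%). They belong to 2 of the 5 genes, Aqp1 and Otx2, and the promoters of Otx2 were counted separately. The 150 bases before the start are shown for Dynlrb2, Enkur and Spag16, which hold the core and whose TMZ arrays all lay above the Control arrays. The other motile cilia genes with the core, Pifo, Mlf1, Drc1, Hydin, Ccdc153, Tekt1, Cfap44 and Tekt4, had TMZ arrays that overlapped Control. Tmem212, whose TMZ arrays also lay above Control, held no core. No core match was found for Rsph4a either, whose TMZ arrays lay above Control as well. Whether its promoter was among those found is not stated here. A link between the core and the signal was not tested. Pifo is shown as the only motile cilia gene here with the palindromic X-box in the form searched. That form reads GTTNCC, any 2 bases and GGNAAC, and other spacings or arms were not searched. This longer motif can contain the core. Capitals mark the match, as GTTGCC or its reverse complement GGCAAC, and for Pifo the whole palindrome. The windows are chr8:116504865-116505014 (plus strand) for Dynlrb2, chr2:21205366-21205515 (minus strand) for Enkur, chr1:69826820-69826969 (plus strand) for Spag16 and chr3:106001498-106001647 (minus strand) for Pifo, all read 5′ to 3′.
Dynlrb2: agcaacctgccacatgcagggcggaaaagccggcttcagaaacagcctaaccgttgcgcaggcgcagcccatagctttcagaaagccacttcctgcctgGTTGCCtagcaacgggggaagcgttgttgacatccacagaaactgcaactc
Enkur: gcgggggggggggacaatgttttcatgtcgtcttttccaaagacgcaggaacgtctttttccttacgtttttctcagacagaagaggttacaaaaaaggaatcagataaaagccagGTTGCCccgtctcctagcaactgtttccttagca
Spag16: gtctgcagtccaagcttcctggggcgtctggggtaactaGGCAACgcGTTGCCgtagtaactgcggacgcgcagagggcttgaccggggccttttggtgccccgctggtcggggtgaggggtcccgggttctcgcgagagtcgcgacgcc
Pifo: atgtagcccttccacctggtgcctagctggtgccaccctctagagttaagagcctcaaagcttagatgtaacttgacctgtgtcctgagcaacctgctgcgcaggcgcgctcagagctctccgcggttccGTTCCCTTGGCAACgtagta

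Spag16 held 2 matches in opposite orientation, the left one as GGCAAC and the right one as GTTGCC. The palindrome lay in 1 of 27 motile cilia promoters (3.7%) and in 0.451% of all promoters. The forkhead core TGTTTA, also searched on both strands, lay in 10 of the 27 motile cilia promoters (37%), that of Dnah12 included, in 7 of 58 promoters of other motile cilia genes (12.1%), in 1 of 8 choroid plexus promoters (12.5%), that of Kcnj13, and in 13.4% of all promoters. A match is a description of the letters and shows no binding.

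The deposited values are log2 signals made by RMA. Array medians lay between 5.06 and 5.12, and correlations between pairs of arrays between 0.9841 and 0.9909. Some arrays stood apart in other gene lists, given here as the mean log2 deviation from each gene's mean over the 12 arrays. The list of tumour and proliferation genes was at 0.78 and 0.92 in Control replicates 1 and 2, at 0.22 in Control replicate 3, and between -0.47 and 0.011 in the 9 treated arrays. The endothelial list was at 0.39 in TMZ replicate 2 and between -0.18 and 0.037 in the other arrays. With each of the 12 arrays left out in turn, 0 members passed the test in any comparison. The number of all 22180 genes that passed depended on the array left out. In Anti-PD-1 against Control it was 65 with all arrays, 686 without Control replicate 3 and 1 without Control replicate 1.

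No member passed the threshold in any comparison (limma, Benjamini-Hochberg adjusted p under 0.05 over 22180 genes). Few of all genes passed either, at most 0.293% in any comparison (Anti-PD-1 against Control). Several choroid plexus members shared a pattern from array to array. Of the other choroid plexus members, 5 varied together with Ttr across the 12 arrays, with TMZ replicate 1 and Combination replicate 3 high. TMZ replicate 1 was also the highest of all 12 arrays for 12 of 26 motile cilia members (46.2%), against 7.52% of all genes. Among 60 other motile cilia genes it was the highest for 14 (23.3%). Combination replicate 3 was the highest for 4 of 8 choroid plexus members, against 6.02% of all genes. Among 25 other choroid plexus genes it was the highest for 3 (12%). Relative to Control, the means of all 8 choroid plexus members were lower in Anti-PD-1 and those of 22 of 26 motile cilia members were higher in TMZ, but none of these differences passed the test.

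**Figure D1:**
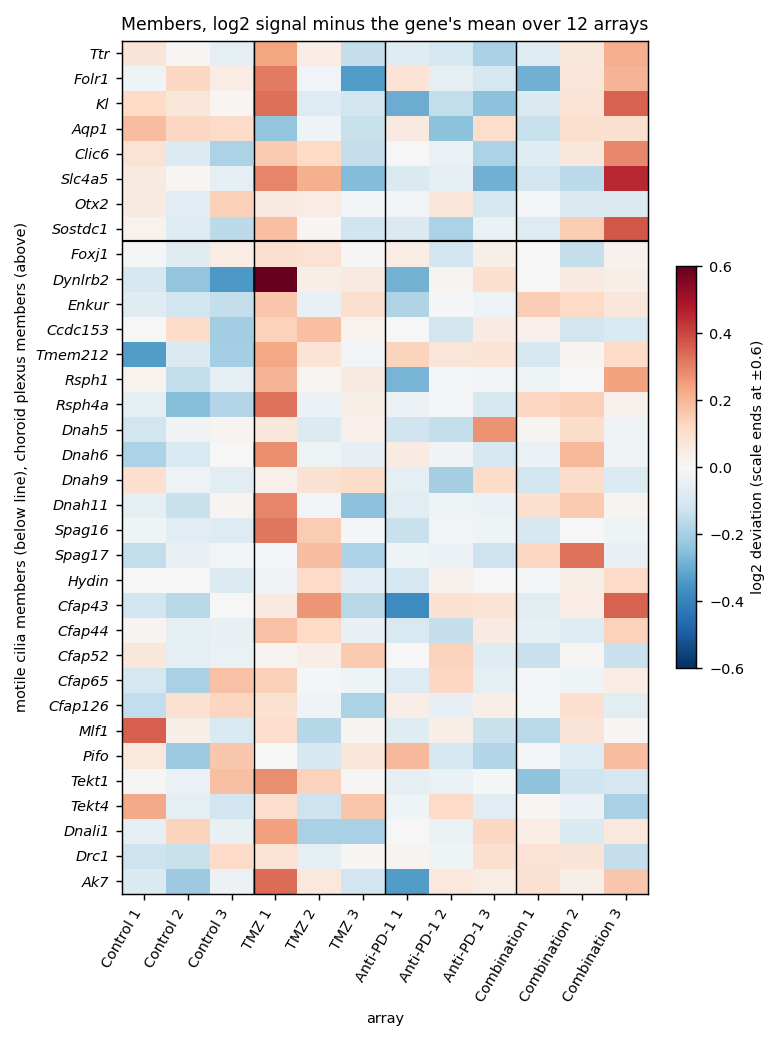
Log2 signal of the 34 measured members (rows) on each of the 12 arrays (columns), minus the gene's mean over the arrays; red is above that mean and blue below, and the colour scale ends at ±0.6. The choroid plexus members lie above the horizontal line and the motile cilia members below it. TMZ replicate 1 is red in most rows, and Combination replicate 3 is red in most choroid plexus rows.

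Ttr encodes transthyretin, which the choroid plexus secretes to carry thyroid hormone and retinol-binding protein. Its log2 signal was 11.97, 11.90 and 11.84 in Control, 12.13, 11.94 and 11.75 in TMZ, 11.82, 11.79 and 11.70 in Anti-PD-1, and 11.82, 11.96 and 12.11 in Combination (replicates 1, 2 and 3 in that order here and for every gene). TMZ replicate 1 and Combination replicate 3 were the highest, and all 3 Anti-PD-1 arrays lay below all 3 Control arrays. The TMZ and Combination arrays spanned the Control arrays.

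Kl encodes Klotho, the co-receptor for FGF23, which the choroid plexus makes in quantity. Its signal was 7.57, 7.52 and 7.46 in Control, 7.78, 7.37 and 7.34 in TMZ, 7.15, 7.30 and 7.20 in Anti-PD-1, and 7.36, 7.53 and 7.80 in Combination. As for Ttr, the same TMZ and Combination replicates were high, and the Anti-PD-1 arrays were the 3 lowest of the 12. Folr1, the folate receptor that carries folate into the cerebrospinal fluid, was at 5.77, 5.92 and 5.84 in Control, 6.11, 5.78 and 5.46 in TMZ, 5.88, 5.74 and 5.69 in Anti-PD-1, and 5.51, 5.87 and 6.00 in Combination. For Folr1 the groups overlapped throughout, and TMZ held both the highest and the lowest array.

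Slc4a5 encodes a sodium bicarbonate cotransporter used in fluid secretion. Its signal was 5.71, 5.67 and 5.60 in Control, 5.95, 5.87 and 5.40 in TMZ, 5.57, 5.60 and 5.37 in Anti-PD-1, and 5.55, 5.50 and 6.11 in Combination. Combination replicate 3 was again the highest array, and the Anti-PD-1 arrays lay at or below the lowest Control array, with values that do not overlap before rounding. Sostdc1, a secreted antagonist of BMP and Wnt signals, was at 6.27, 6.17 and 6.09 in Control, 6.43, 6.26 and 6.13 in TMZ, 6.16, 6.06 and 6.21 in Anti-PD-1, and 6.17, 6.40 and 6.62 in Combination. Clic6, of the chloride intracellular channel family, ranged from 6.68 in Anti-PD-1 replicate 3 to 7.16 in Combination replicate 3.

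Aqp1 and Otx2 did not share the pattern. Aqp1, the water channel of the apical membrane, was at 5.63, 5.57 and 5.56 in Control, 5.21, 5.42 and 5.31 in TMZ, 5.50, 5.20 and 5.55 in Anti-PD-1, and 5.31, 5.54 and 5.54 in Combination. Every treated array lay below every Control array, by little in several of them. Otx2, the homeobox factor required for the choroid plexus, had the narrowest range of the choroid plexus members, from 5.88 to 6.13.

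**Figure D2:**
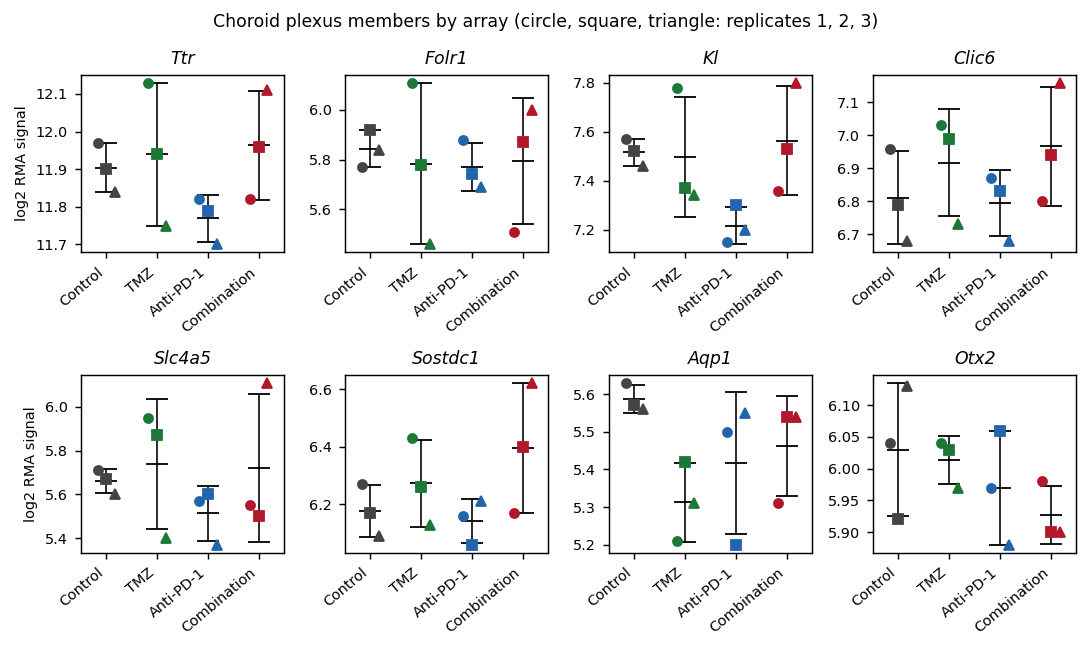
Log2 RMA signal of the 8 measured choroid plexus members on each array, by group; circles, squares and triangles are replicates 1, 2 and 3, and bars are the mean ± SD of 3 arrays. In 6 panels TMZ replicate 1 (circle) and Combination replicate 3 (triangle) lie at or near the top, whereas in the Aqp1 panel the Control arrays are the highest.

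Within TMZ and within Combination the order of the arrays was alike for most choroid plexus members. In Anti-PD-1, replicates 1, 2 and 3 were the highest array of the group for 3, 3 and 2 of the 8 members. The shares of all genes were 32.1%, 35.3% and 32.7%. Replicate 3 was the lowest Anti-PD-1 array for 5 of the 8 (33.7% of all genes). TMZ replicate 1 was the highest TMZ array for 7 of 8 members (35.6% of all genes), and TMZ replicate 3 the lowest for 7 of 8 (32% of all genes). Combination replicate 3 was the highest Combination array for 7 of 8 (28.2% of all genes), and Combination replicate 1 the lowest for 6 of 8 (30.8% of all genes). The mean log2 deviation of the 8 members was 0.17, 0.04 and -0.16 in TMZ and -0.11, 0.038 and 0.24 in Combination, against 0.07, 0.016 and -0.018 in Control and -0.055, -0.10 and -0.13 in Anti-PD-1. The range within TMZ and within Combination was thus wider than the gap between the means of any pair of groups. The median within-group SD was 0.149 for these members and 0.117 for all genes. For the 26 motile cilia members it was 0.119, near that of all genes, and 20 of them had a mean signal below that of the median gene.

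The relation with Ttr was measured over the 12 arrays for each of the other choroid plexus members. Pearson's r with Ttr was 0.91 for Kl (Spearman's rho 0.90), 0.88 for Clic6 (rho 0.83), 0.87 for Slc4a5 (rho 0.81), 0.83 for Sostdc1 (rho 0.78) and 0.76 for Folr1 (rho 0.77). These 5 passed a two-sided permutation test adjusted over the 33 relations computed, with adjusted p = 0.0025 for Kl, Clic6 and Slc4a5, 0.0079 for Sostdc1 and 0.029 for Folr1. The adjusted permutation p of rho lay between 0.0053 for Kl and 0.034 for Folr1. For Aqp1 and Otx2, r was 0.04. The genes share the same RNA samples and the same array normalisation.

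The arrays farthest from the median of Ttr were TMZ replicate 1 and Combination replicate 3. Without them r was 0.77 for Kl, 0.80 for Clic6, 0.71 for Slc4a5, 0.63 for Sostdc1 and 0.53 for Folr1, and 0 of the 33 relations passed (lowest adjusted permutation p = 0.18). Leaving out the extremes of Ttr narrows its range and the number of arrays, which can by itself lower r and raise p. The drop therefore cannot tell how far these relations rest on those arrays. With the group means removed, so that only differences between arrays of a group count, r was 0.88 for Kl, 0.92 for Clic6, 0.85 for Slc4a5, 0.85 for Sostdc1 and 0.91 for Folr1. By an exact permutation within groups, 1 of them passed after adjustment (Clic6, adjusted p = 0.025) and the other four had an adjusted p of 0.11.

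**Figure D3:**
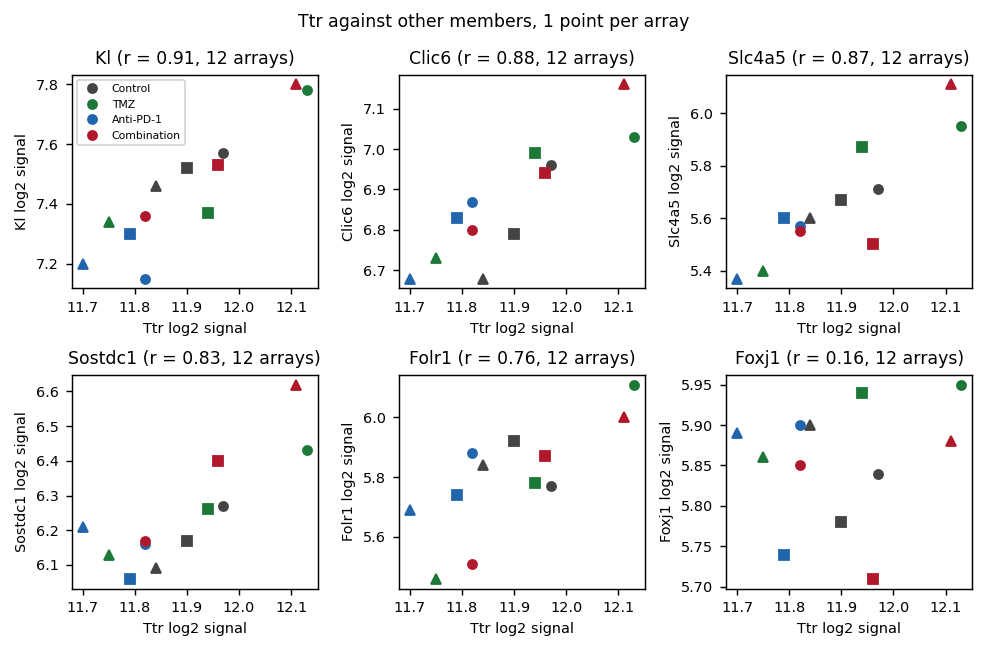
Log2 signal of other members (vertical axes) against that of Ttr (horizontal axes) on the 12 arrays, coloured by group; circles, squares and triangles are replicates 1, 2 and 3. Kl, Clic6, Slc4a5, Sostdc1 and Folr1 rise with Ttr along the axis (r between 0.76 and 0.91), with TMZ replicate 1 and Combination replicate 3 at the right end, whereas Foxj1 shows no such slope (r 0.16).

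Lists of other cell types lay between -0.082 and 0.068 in both of these arrays. In TMZ replicate 1 the mean log2 deviation was -0.01 for neurons, 0.058 for astrocytes, 0.067 for oligodendrocytes, -0.066 for endothelium, 0.051 for microglia, 0.036 for meninges and fibroblasts, 0.033 for tanycytes and 0.011 for tumour and proliferation genes. In Combination replicate 3 it was -0.019 for neurons, 0.031 for astrocytes, -0.053 for oligodendrocytes, 0.017 for endothelium, 0.068 for microglia, -0.074 for meninges and fibroblasts, 0.0081 for tanycytes and -0.082 for tumour and proliferation genes. Read within groups, as for the choroid plexus members, TMZ replicate 1 was the highest TMZ array for 11 of 11 microglia, 8 of 9 tumour and proliferation, and 8 of 10 oligodendrocyte genes. Combination replicate 3 was the highest Combination array for 7 of 11 microglia genes, 2 of 9 tumour and proliferation genes and 2 of 10 oligodendrocyte genes. The microglia list was at 0.051, -0.24 and -0.10 in TMZ and at -0.0083, 0.0062 and 0.068 in Combination. A list of 25 other measured choroid plexus genes was also highest in these arrays, at 0.13 in TMZ replicate 1 and 0.089 in Combination replicate 3. The part of these lists in the shared pattern was not tested, and how much choroid plexus tissue each sample held was not measured.

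Among the motile cilia members, Foxj1, the forkhead factor that directs motile cilia formation, hardly varied. It was at 5.84, 5.78 and 5.90 in Control, 5.95, 5.94 and 5.86 in TMZ, 5.90, 5.74 and 5.89 in Anti-PD-1, and 5.85, 5.71 and 5.88 in Combination. All 4 groups overlapped. Its r with the other 25 motile cilia members lay between -0.32 and 0.66 with a median of 0.14, and 0 of the 25 passed the adjusted permutation test. At an unadjusted p under 0.05 there were 2, Cfap44 (r 0.66) and Tekt1 (r 0.58). The narrow range of Foxj1 (0.24 over the arrays) limits what a relation with it can show. Relations among the other motile cilia members were not computed. Between Ttr and Foxj1 r was 0.16.

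Of the dynein components, Dynlrb2, a light chain of the roadblock class, had the widest range of all members. Its signal was 5.43, 5.29 and 5.18 in Control, 6.20, 5.56 and 5.58 in TMZ, 5.24, 5.54 and 5.62 in Anti-PD-1, and 5.53, 5.58 and 5.56 in Combination. TMZ replicate 1 stood well above the rest, while every TMZ and Combination array lay above every Control array. Dnah5, a heavy chain of the outer dynein arm, was at 5.0, 5.09 and 5.13 in Control, 5.18, 5.03 and 5.14 in TMZ, 4.99, 4.97 and 5.38 in Anti-PD-1, and 5.13, 5.22 and 5.08 in Combination. The groups overlapped, and Anti-PD-1 held both the highest and the lowest array. Dnah11 and Dnah9, also outer arm heavy chains, ranged from 4.63 to 5.17 and from 5.33 to 5.64. Dnah6, an inner arm heavy chain, ranged from 4.82 to 5.29, and Dnali1, an inner arm light intermediate chain, from 5.84 to 6.28. TMZ replicate 1 was the highest array for Dnah6, Dnah11 and Dnali1.

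Rsph4a, a protein of the radial spoke head, was at 5.81, 5.61 and 5.69 in Control, 6.19, 5.83 and 5.90 in TMZ, 5.83, 5.86 and 5.77 in Anti-PD-1, and 5.99, 6.01 and 5.89 in Combination. The Control arrays were lower than every TMZ and Combination array, and TMZ replicate 1 was the highest. Rsph1, the other spoke head member, ranged from 4.86 to 5.38. Spag16, of the central apparatus, was at 4.72, 4.68 and 4.67 in Control, 5.06, 4.90 and 4.74 in TMZ, 4.61, 4.73 and 4.72 in Anti-PD-1, and 4.65, 4.75 and 4.72 in Combination. Only TMZ arrays exceeded 4.75, and the other groups overlapped. Spag17 and Hydin, also of the central apparatus, ranged from 3.89 to 4.40 and from 5.16 to 5.38.

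Tekt1, a tektin filament protein of the doublets, was at 5.46, 5.41 and 5.63 in Control, 5.73, 5.59 and 5.46 in TMZ, 5.40, 5.41 and 5.44 in Anti-PD-1, and 5.21, 5.33 and 5.35 in Combination. The 3 Combination arrays were the lowest of the 12. Cfap52, an axonemal protein, was at 5.59, 5.47 and 5.48 in Control, 5.54, 5.56 and 5.68 in TMZ, 5.52, 5.66 and 5.45 in Anti-PD-1, and 5.39, 5.53 and 5.39 in Combination. Cfap43, which with Cfap44 belongs to a complex that tethers inner dynein arms, was at 4.24, 4.19 and 4.36 in Control, 4.41, 4.62 and 4.19 in TMZ, 3.98, 4.45 and 4.44 in Anti-PD-1, and 4.29, 4.40 and 4.71 in Combination. For Cfap43 all groups overlapped, with a within-group SD of 0.21.

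Enkur, the axonemal protein enkurin, was at 4.43, 4.39 and 4.36 in Control, 4.67, 4.46 and 4.60 in TMZ, 4.32, 4.49 and 4.47 in Anti-PD-1, and 4.65, 4.62 and 4.57 in Combination. Its TMZ and Combination arrays lay above its Control arrays. Tmem212, a membrane protein used as an ependymal marker, was at 5.05, 5.30 and 5.18 in Control, 5.62, 5.47 and 5.37 in TMZ, 5.52, 5.46 and 5.47 in Anti-PD-1, and 5.29, 5.40 and 5.50 in Combination. All TMZ and Anti-PD-1 arrays exceeded the Control arrays, and Combination replicate 1 lay just below the highest of them.

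Ak7, an adenylate kinase of cilia, was at 5.52, 5.39 and 5.57 in Control and 5.94, 5.67 and 5.49 in TMZ, with 5.27, 5.67 and 5.65 in Anti-PD-1 and 5.70, 5.64 and 5.77 in Combination. The Combination arrays alone lay above all of its Control arrays. Ccdc153, an ependymal marker, ranged from 6.48 to 6.87, Drc1, of the nexin-dynein regulatory complex, from 6.18 to 6.44, and Tekt4, a tektin, from 4.35 to 4.77. Cfap44 ranged from 5.52 to 5.84, Cfap65 from 5.77 to 6.14, Cfap126 from 3.76 to 4.08, Pifo from 3.44 to 3.85 and Mlf1 from 3.72 to 4.25. None of these had groups that stood apart from Control except Ak7 in Combination.

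**Figure D4:**
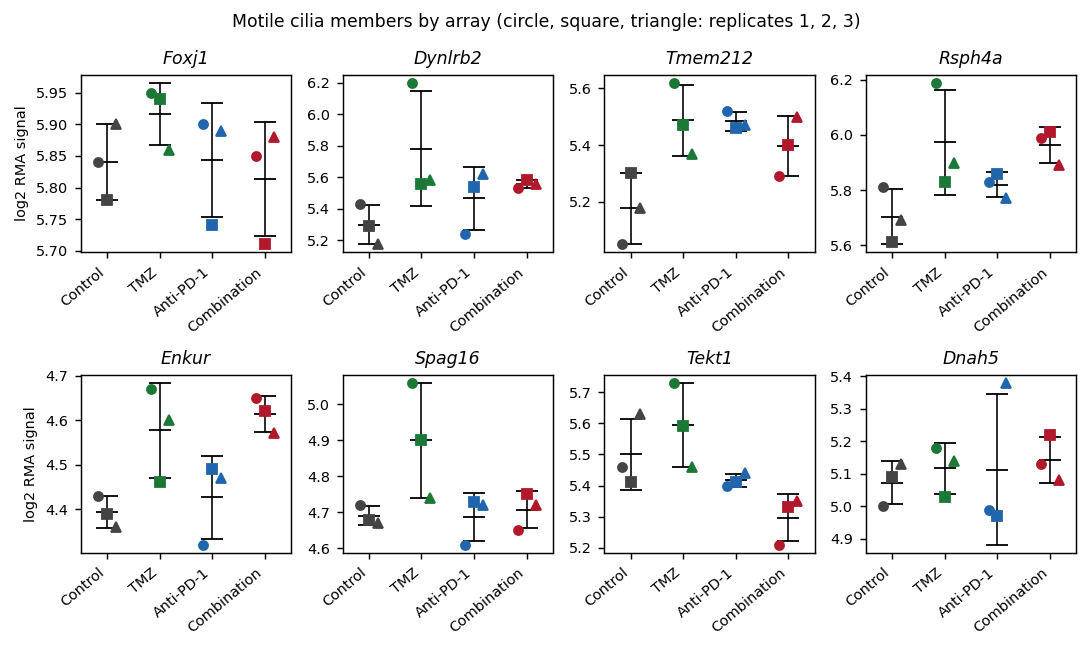
Log2 RMA signal of 8 motile cilia members on each array, by group; circles, squares and triangles are replicates 1, 2 and 3, and bars are the mean ± SD of 3 arrays. TMZ replicate 1 (circle) is the highest array for Dynlrb2 (6.20), Rsph4a (6.19) and Spag16 (5.06), and the Combination arrays are the lowest for Tekt1.

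TMZ against Control asks what the alkylating drug changed. Motile cilia members were mostly higher, 22 of 26 (52.1% of all genes had a difference above 0), with a median log2 difference of 0.0803 against 0.00609 over all genes. Of the 34 members 0 passed (0.0992% of all genes), and the lowest adjusted p was 0.215; 6 had an unadjusted p under 0.05 (11.3% of all genes). The TMZ arrays of 5 motile cilia members lay wholly above Control (8.19% of all genes), namely Dynlrb2, Enkur, Tmem212, Rsph4a and Spag16, and these 5 with Aqp1 were the 6 members at that unadjusted p.

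The log2 difference was 0.31 ± 0.085 (limma SE, 95% interval 0.13 to 0.50) for Tmem212, 0.48 ± 0.15 (0.14 to 0.82; adjusted p = 0.285) for Dynlrb2 and 0.27 ± 0.091 (0.074 to 0.47; adjusted p = 0.3) for Rsph4a. Without TMZ replicate 1 the difference was 0.27 for Dynlrb2 and 0.16 for Rsph4a, 22 of 26 became 21, and without TMZ replicate 3 the median of the motile cilia members was 0.158. The choroid plexus members split 4 higher and 4 lower, with a median of 0.012 that was -0.0443 without TMZ replicate 1 and 0.115 without TMZ replicate 3. Aqp1 was lower by a log2 difference of -0.27 ± 0.10 (adjusted p = 0.333), the only choroid plexus member whose TMZ arrays were wholly below Control (6.81% of all genes).

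Anti-PD-1 against Control asks what the antibody changed. The means of all 8 choroid plexus members were lower, so that 0 of 8 had a difference above 0 (52.4% of all genes), with a median log2 difference of -0.106 against 0.00782 over all genes. For 4 of them, Ttr, Kl, Aqp1 and Slc4a5, the Anti-PD-1 arrays lay wholly below Control (8.33% of all genes). None of the 34 members passed (0.293% of all genes), and the lowest adjusted p was 0.146, for Tmem212. At an unadjusted p under 0.05 there were 2 members (13.5% of all genes), Tmem212 and Kl. Kl was at -0.30 ± 0.13 (limma SE, 95% interval -0.58 to -0.027; adjusted p = 0.321).

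For Ttr the interval of the Anti-PD-1 difference ran from -0.35 to 0.079 around -0.14. Aqp1 was at -0.17 ± 0.10 (adjusted p = 0.481), and at -0.065 without Anti-PD-1 replicate 2. With Control replicate 1 left out, 6 of the 8 choroid plexus members were lower. That array was the highest Control array for 6 of the 8 (33.1% of all genes). The motile cilia members had a median of 0.017 with 17 of 26 higher; the median was -0.0117 without Anti-PD-1 replicate 3 and 0.0363 without Control replicate 3. Tmem212 was the only member wholly above Control (10.3% of all genes), at 0.31 ± 0.085 (95% interval 0.12 to 0.49).

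Combination against Control asks what both agents together changed. Of the 34 members 0 passed (0% of all genes), with a lowest adjusted p of 0.267; 4 had an unadjusted p under 0.05 (11.6% of all genes). The motile cilia members had a median log2 difference of 0.0515 with 18 of 26 higher (50.2% of all genes), and 4 of them lay wholly above Control (8.98% of all genes), namely Dynlrb2, Enkur, Rsph4a and Ak7. Without Control replicate 3 that median was 0.103. Enkur was at 0.22 ± 0.071 (limma SE, 95% interval 0.068 to 0.38), Rsph4a at 0.26 ± 0.091 (adjusted p = 0.32) and Tmem212 at 0.22 ± 0.085 (adjusted p = 0.356). Tekt1, the fourth member at that unadjusted p, was lower, at -0.20 (adjusted p = 0.372), and lay wholly below Control together with Aqp1 (7.82% of all genes). The median of the choroid plexus members was 0.0509 with all arrays, -0.0821 without Combination replicate 3 and 0.136 without Combination replicate 1.

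**Figure D5:**
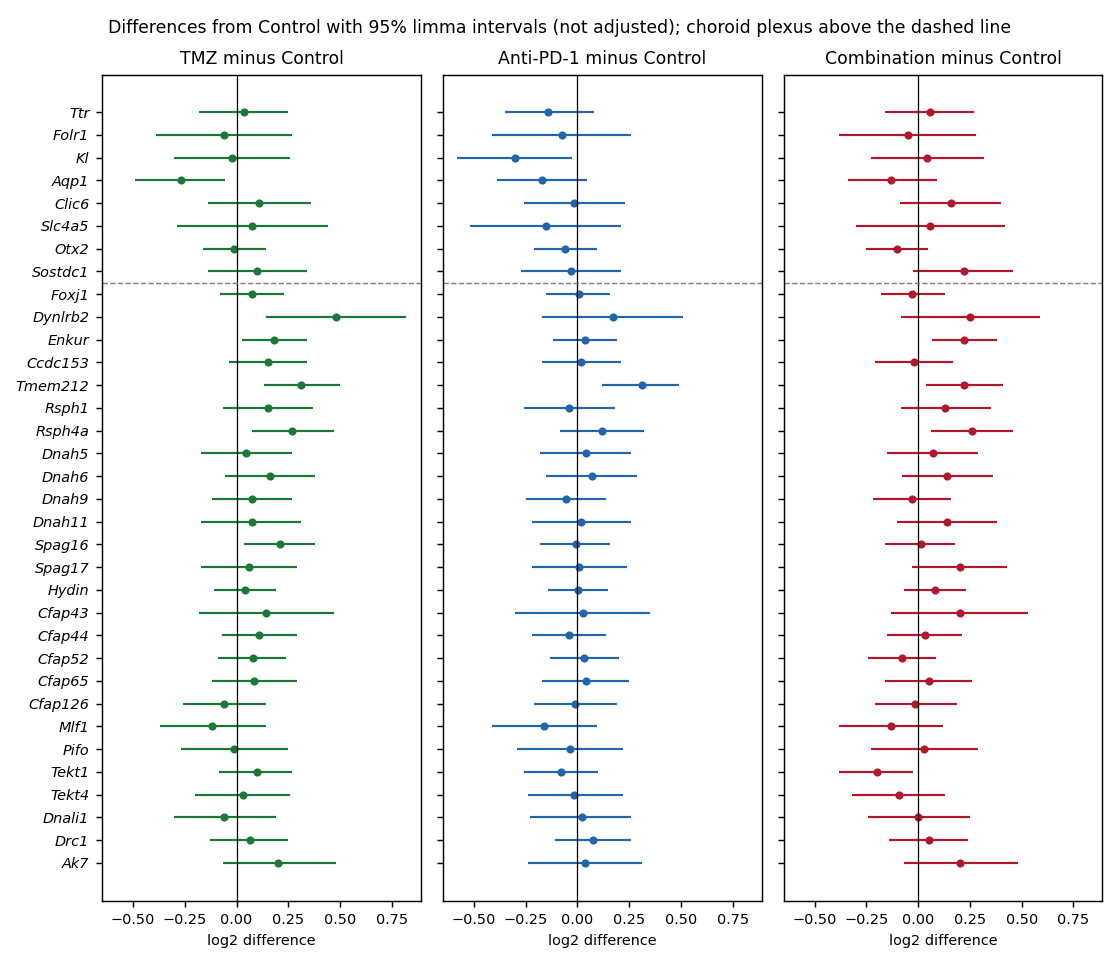
Log2 difference from Control of each of the 34 members in TMZ, Anti-PD-1 and Combination (points) with its 95% limma interval, not adjusted for the number of genes (lines); choroid plexus members lie above the dashed line. All choroid plexus points in the Anti-PD-1 panel lie left of 0, between -0.30 and -0.018, and most motile cilia points in the TMZ panel lie right of 0. The 3 panels share the Control arrays.

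Between treated groups 0 of the 34 members passed in Combination against TMZ, in Combination against Anti-PD-1 or in TMZ against Anti-PD-1 (0% of all genes in each), with every adjusted p at 1. Against TMZ, 2 members had an unadjusted p under 0.05 (4.19% of all genes), Tekt1 and Spag16. In Combination 6 of 8 choroid plexus and 9 of 26 motile cilia members were higher than in TMZ (48.8% of all genes). The Combination arrays were wholly higher for 0 members (3.81% of all genes) and wholly lower for 2 members (4.7% of all genes), Tekt1 at -0.30 ± 0.082 (limma SE, 95% interval -0.48 to -0.12) and Cfap52 at -0.15 ± 0.075. Spag16 was at -0.19 ± 0.078, and at -0.11 without TMZ replicate 1.

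Against Anti-PD-1, 7 of 8 choroid plexus and 17 of 26 motile cilia members were higher in Combination (47.8% of all genes), and 3 had an unadjusted p under 0.05 (4.91% of all genes), Kl, Enkur and Sostdc1. The choroid plexus members had a median of 0.185 that was 0.0466 without Combination replicate 3. Combination arrays were wholly higher for 4 members (4.87% of all genes), Kl, Enkur, Rsph4a and Dnah11, and wholly lower for Tekt1 (5.67% of all genes). Kl was at 0.35 ± 0.13 (95% interval 0.071 to 0.62) and at 0.23 without Combination replicate 3. Sostdc1 was at 0.25 ± 0.11, and at 0.14 without that array. Enkur was at 0.19 ± 0.071.

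In TMZ against Anti-PD-1, 30 of the 34 members were higher in TMZ, 7 of 8 of the choroid plexus and 23 of 26 of motile cilia (49.5% of all genes). An unadjusted p under 0.05 was found for 2 members, Kl and Spag16 (4.51% of all genes). TMZ arrays were wholly higher for 4 members (4.38% of all genes), Kl, Rsph1, Spag16 and Tekt1, and wholly lower for 0 (4.39% of all genes). The difference was 0.28 ± 0.13 for Kl and 0.14 without TMZ replicate 1, 0.22 ± 0.078 for Spag16 and 0.14 without that array, and 0.17 ± 0.082 for Tekt1 and 0.10 without it.

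The interaction asks whether TMZ made a different change on top of the antibody than alone, as Combination minus Anti-PD-1 less TMZ minus Control. Again 0 of 34 members passed (0.00451% of all genes), with a lowest adjusted p of 0.367, that of Tmem212. Tmem212 was at -0.40 ± 0.12 (limma SE, 95% interval -0.66 to -0.13): its difference from Control was 0.31 in TMZ, 0.31 in Anti-PD-1 and 0.22 in Combination. At an unadjusted p under 0.05 there were 2 members (8.92% of all genes), Tmem212 and Aqp1. A value above 0 was found for 17 of the 34 (46.2% of all genes). Those were 7 of 8 choroid plexus members (median 0.144, and 0.0118 without Combination replicate 3) and 10 of 26 motile cilia members (median -0.0432). Aqp1 was at 0.32 ± 0.14 (adjusted p = 0.542) and Kl at 0.37 ± 0.18 (adjusted p = 0.58). The F test of any difference among the 4 groups called 0 members (0.00451% of all genes), and 5 had an unadjusted p under 0.05 (10.1% of all genes), Enkur, Tmem212, Rsph4a, Spag16 and Tekt1.

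Differences from Control varied among the 6 genes followed in every comparison. The log2 difference of Ttr was 0.037 (95% interval -0.18 to 0.25) in TMZ, -0.14 (-0.35 to 0.079) in Anti-PD-1 and 0.058 (-0.16 to 0.27) in Combination. For Kl it was -0.02, -0.30 and 0.044 in that order, and for Dynlrb2 0.48, 0.17 and 0.25. That of Foxj1 was 0.075, 0.0056 and -0.028 in TMZ, Anti-PD-1 and Combination, that of Dnah5 was 0.046, 0.04 and 0.072, and that of Folr1 was -0.06, -0.075 and -0.05.

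Other genes of the same structures were read from lists that share no gene with the members. Of 30 other choroid plexus genes 25 were measured and 0 passed in any comparison with Control. Their median log2 difference was -0.0029 in TMZ, -0.0941 in Anti-PD-1 with 17 of 25 lower, and 0.0381 in Combination. Wfikkn2, a secreted protein that binds growth factors of the myostatin family, had the smallest F-test p of this list, with 4.56, 4.46 and 4.65 in Control, 4.47, 4.36 and 4.40 in TMZ, 5.08, 5.10 and 4.86 in Anti-PD-1, and 5.04, 4.66 and 4.70 in Combination. It was higher in Anti-PD-1 (0.45, adjusted p = 0.0921), against the direction of the choroid plexus members. Slc13a4, a sulfate transporter, was at 6.79, 6.89 and 6.77 in Control and 7.20, 7.26 and 7.11 in TMZ, with 6.88, 6.94 and 6.96 in Anti-PD-1 and 7.28, 7.05 and 7.14 in Combination. Its difference was 0.37 in TMZ (adjusted p = 0.11) and 0.33 in Combination (adjusted p = 0.151). F5, coagulation factor V, ranged from 6.49 to 6.74 in Control, 6.74 to 6.98 in TMZ, 6.38 to 6.53 in Anti-PD-1 and 6.78 to 7.23 in Combination.

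Of 71 other motile cilia genes 60 were measured and 0 passed in any comparison with Control. Of the 60, 40 were higher in TMZ, 29 in Anti-PD-1 and 39 in Combination, with medians of 0.0454, -0.00854 and 0.0449. Zmynd10, needed to assemble dynein arms, was at 4.85, 5.05 and 5.02 in Control, 5.25, 5.28 and 5.08 in TMZ, 5.10, 5.25 and 5.23 in Anti-PD-1, and 5.29, 5.24 and 5.12 in Combination. Every treated array of Zmynd10 lay above the Control arrays. Dnaaf1, also a dynein assembly factor, was lowest in the 3 Combination arrays, at 5.20 to 5.31 against 5.33 to 5.60 in the others, and Lrrc23, a radial spoke protein, ranged from 4.42 in Anti-PD-1 to 5.03 in Combination. All 17 regulators of multiciliated cell formation were measured and 0 passed; medians were -0.0578, 0.014 and -0.0652. Plk4, a kinase of centriole duplication that dividing cells also use, was at 5.86, 5.56 and 5.38 in Control and between 5.01 and 5.23 in the treated arrays. Its difference was -0.51 in TMZ (adjusted p = 0.11), -0.52 in Anti-PD-1 (adjusted p = 0.0571) and -0.39 in Combination (adjusted p = 0.195). Hes6 and Foxn4, transcription factors, were at 5.54 to 5.72 and 4.62 to 4.78 in Control and at 5.23 to 5.35 and 4.30 to 4.61 in Combination. The tumour and proliferation list was lower in the same arrays, as given above, and its part in the Plk4 values was not tested.

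Genes of intraflagellar transport and primary cilia, which most cells carry, were measured for 29 of 31, and 0 passed. Of the 29, 24 were higher in TMZ, 23 in Anti-PD-1 and 26 in Combination, with medians of 0.0564, 0.0555 and 0.0903. Tmem67, a protein of the ciliary transition zone, was at 6.90, 7.0 and 6.98 in Control, 7.25, 7.28 and 7.29 in TMZ, 7.14, 7.27 and 7.26 in Anti-PD-1, and 7.10, 7.32 and 7.21 in Combination. All 9 treated arrays of Tmem67 exceeded the Control arrays, with differences of 0.31 (adjusted p = 0.126), 0.26 (adjusted p = 0.117) and 0.25 (adjusted p = 0.206). Dync2h1, the motor of retrograde transport, was at 6.69 to 6.92 in Control and 6.92 to 7.05 in the treated arrays, and Ttc8, of the BBSome, at 6.83 to 6.96 and 6.98 to 7.17. Median log2 differences of other cell type lists were also above 0 in TMZ, Anti-PD-1 and Combination, in that order 0.0482, 0.0862 and 0.0299 for neurons, 0.211, 0.109 and 0.166 for endothelium (11 of 12 genes higher in each), and 0.0965, 0.114 and 0.126 for meninges and fibroblasts. Those of microglia (-0.238, -0.131 and -0.101), oligodendrocytes (-0.11, -0.0264 and -0.102) and tumour and proliferation genes (-1.01, -1.16 and -0.853) were below 0. Those of astrocytes (0.00575, -0.0435 and -0.026) and tanycytes (0.0115, 0.0127 and -0.00651) differed in sign between comparisons. The part of these lists in the values of the cilia genes was not tested.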

How the data were processed

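Total RNA of tumour masses (4 groups of 3 arrays) was read on Affymetrix whole-transcript arrays. The authors deposited log2 RMA signals from the Affymetrix Expression Console, per the submitters' processing notes; the version is not given in the sources used here. RMA quantile-normalises the arrays together. Differences of dim probe sets can be compressed on arrays, and no detection call was used here. Of 41345 probe sets, 23521 carried 1 symbol, 1814 several, and 16010 were not listed. The probe set with the highest mean stood for each of 22180 genes; 2 members had several. All 34 measured members matched RefSeq (GRCm38.p6) by gene number with 0 changed symbols.

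A mean per group was estimated from all 12 arrays (limma 3.58.1, R 4.3.3; eBayes, 8 residual degrees of freedom), with two-sided p-values Benjamini-Hochberg adjusted over all genes and a threshold of 0.05. The number of arrays limits the precision. Relations over arrays used 100000 permutations (SciPy 1.17.1) or, with group means removed, exact within-group permutations. With 2 members unmeasured, 33 relations remained. The fit and the relations were tested on simulated data.

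The members and lists were chosen with earlier results of these data known. Values by array were given for Ttr, Folr1, Kl, Foxj1, Dynlrb2 and Dnah5, for the 5 members with the largest within-group SD and for the 3 smallest p of each comparison, and for other lists the 3 smallest F-test p are named, by rule; Ak7 was chosen after its values were seen. The alternatives were median centring, a variance trend, brighter genes only, mean of probe sets, all probe sets, groups compared only, array weights, a replicate block and each array left out.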

Additional observations from a re-analysis of the deposited data

How the results depend on the processing

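The count of members past the threshold (limma, adjusted p) was 0 in every comparison under all alternatives, with the lowest adjusted p over all of them at 0.103. Over all genes at most 686 of 22180 passed, in Anti-PD-1 against Control without Control replicate 3. With brighter genes only, 12 of the 34 members remained. The 21 named differences kept their sign and stayed short of the threshold. Leaving out 1 array moved these medians. For motile cilia members they ranged from 0.0566 to 0.158 (TMZ against Control), from 0.0507 to 0.122 (TMZ against Anti-PD-1) and from -0.0837 to 0.0129 (interaction). They ranged from -0.0117 to 0.0363 in Anti-PD-1 and from 0.0395 to 0.103 in Combination, both against Control. For choroid plexus members they ranged from -0.0821 to 0.136 (Combination against Control), from 0.0466 to 0.264 (Combination against Anti-PD-1) and from 0.0118 to 0.245 (interaction, 0.0187 without TMZ replicate 3). The median for choroid plexus members in TMZ against Control changed sign, from -0.0443 without TMZ replicate 1 to 0.115 without TMZ replicate 3. The counts of members by direction were recomputed as an alternative added after seeing the data: 21 to 24 motile cilia members were higher in TMZ, 16 to 19 in Combination, and 6 to 8 choroid plexus members were lower in Anti-PD-1. Of the 5 relations with Ttr that passed, 1 passed with group means removed and 0 without the 2 extreme arrays. The replicate numbers did not pair the arrays: 18 pairs with the same number had correlations of deviations from -0.162 to 0.156, and 36 other pairs from -0.268 to 0.201. With the replicate block 0 members passed in each comparison. Arrays give no depth, and dim probe sets limit what can be seen.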
